A study of Homo sapiens with 4 samples.

Results

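The mitochondrial respiratory chain is built mostly from nuclear genes, and their transcripts were followed here in KYSE170 cells given EDHB and in untreated cells. The set was defined by gene symbol: protein-coding genes of the NDUFA, NDUFB, NDUFC, NDUFS, NDUFV, UQCR, COX4 to COX8 and ATP5 series, with SDHA to SDHD, CYC1 and CYCS. The rule gave 100 genes in the RefSeq table. Of these, 89 had at least 1 probe set annotated to no other gene and are described below, out of 19754 genes tested. The other 11, among them SDHB, NDUFS8, UQCRFS1 and UQCRH, were not analysed here as single genes. By complex, the measured genes were 33 of complex I, 3 of complex II, 7 of complex III, cytochrome c, 19 of complex IV and 18 of complex V. The symbol rule also took in the 8 NDUFAF genes. These are not subunits but complex I assembly factors, and they are given as a group of their own. COXFA4 and COXFA4L2, listed in complex IV, are the current names of NDUFA4 and NDUFA4L2.

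Complexes I and II pass electrons from NADH and succinate to ubiquinone, complex III passes them on to cytochrome c, and complex IV gives them to oxygen. Complexes I, III and IV pump protons as they work, and complex V, the ATP synthase, uses the proton gradient to make ATP. A few subunits of complexes I, III, IV and V are made inside the mitochondrion and were not analysed here; the rest are imported and fitted together by assembly factors that do not stay in the finished complex. When oxygen is short or prolyl hydroxylases are blocked, hypoxia-inducible factors (HIF) accumulate, and some of their known target genes change how the chain is fed, exchange a subunit or remove mitochondria.

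The cells given EDHB received 50 µg/ml of ethyl-3,4-dihydroxybenzoate, an inhibitor of prolyl hydroxylases, for 12 h (arrays EDHB 1 and EDHB 2), and the others were left untreated (arrays untreated 1 and untreated 2). All were KYSE170, a line from a human oesophageal squamous cell carcinoma, grown in RPMI medium with 10% fetal bovine serum. Total RNA was read on Affymetrix expression arrays, and all levels below are log2 intensities of the brightest usable probe set of a gene. The labels do not say whether replicates came from separate cultures, so each p-value reflects array-to-array spread that may be technical. With bulk RNA, fewer cells of a type and less RNA per cell cannot be told apart.

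In the deposited table the rows of replicate 2 ran in an order of their own, which was restored from the untreated levels for 54467 of 54613 probe sets. The order is an inference from the values, so for the medians of the complexes and for several genes the change within replicate 1, which does not need it, is given as well. Median intensity was 23.3 to 23.5 on the linear scale in the 4 arrays, and precision is limited by how few arrays there are. Known HIF targets had higher values with EDHB. VEGFA changed by 1.32 (SE 0.10), NDRG1 by 2.30 (SE 0.23) and BNIP3 by 1.14 (SE 0.11), each at an adjusted p of 0.0692 in limma. Of the 6 epithelial markers measured, KRT5, SFN, DSG3, EPCAM and CDH1 lay above the median probe set (4.55) on all arrays. KRT14 lay below it. All 3 blood and all 3 testis markers were below it, as were 3 of 4 fibroblast (COL1A1 was above), 2 of 3 endothelial (PECAM1 was above) and 3 of 4 muscle markers.

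The promoters of 4 genes are printed so that low and near-zero changes can be set beside their sequence: NDUFAF4, NDUFAF5 and NDUFAF7 were the 3 assembly factors with the lowest changes, and CYCS, the cytochrome c gene and a textbook target of nuclear respiratory factor 1, had a change near 0 in its brightest probe set. They were chosen after the values were seen. Each line gives the 250 bases before the gene's start, 5′ to 3′ on the gene's strand, from RefSeq on GRCh38.p14. Capitals mark matches on either strand to GCATGCGC (nuclear respiratory factor 1 core), CCGGAAG (ETS core), ATGGCGG (YY1 core), CACGTG (E-box) or ACGTG (HIF core, which any CACGTG also contains).
NDUFAF4 (chr6:96897892-96898141, minus strand): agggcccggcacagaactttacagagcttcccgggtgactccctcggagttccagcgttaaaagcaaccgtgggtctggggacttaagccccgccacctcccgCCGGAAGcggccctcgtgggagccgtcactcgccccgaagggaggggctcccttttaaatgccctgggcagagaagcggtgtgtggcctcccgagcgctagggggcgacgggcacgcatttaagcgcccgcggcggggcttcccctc
NDUFAF5 (chr20:13784778-13785027, plus strand): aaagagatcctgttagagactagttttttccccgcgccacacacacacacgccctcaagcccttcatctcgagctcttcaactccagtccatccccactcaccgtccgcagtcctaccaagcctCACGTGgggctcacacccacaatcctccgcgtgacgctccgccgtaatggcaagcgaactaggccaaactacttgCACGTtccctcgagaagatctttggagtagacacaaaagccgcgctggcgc
NDUFAF7 (chr2:37231408-37231657, plus strand): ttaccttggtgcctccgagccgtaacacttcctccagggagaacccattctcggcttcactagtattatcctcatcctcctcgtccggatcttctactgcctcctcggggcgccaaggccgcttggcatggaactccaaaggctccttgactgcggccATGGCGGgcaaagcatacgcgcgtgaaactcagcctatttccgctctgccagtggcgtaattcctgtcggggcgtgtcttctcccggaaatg
CYCS (chr7:25125261-25125510, minus strand): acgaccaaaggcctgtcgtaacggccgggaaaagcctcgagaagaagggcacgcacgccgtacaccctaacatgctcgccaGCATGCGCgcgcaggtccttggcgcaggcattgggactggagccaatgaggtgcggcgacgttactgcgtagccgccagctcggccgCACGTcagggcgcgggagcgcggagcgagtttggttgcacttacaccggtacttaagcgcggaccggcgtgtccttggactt

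In these windows NDUFAF4 held the ETS core 147 bases before its start, NDUFAF5 an E-box 126 bases before it and a HIF core 51 bases before it, and NDUFAF7 the YY1 core 92 bases before it. CYCS held the nuclear respiratory factor 1 core 169 bases and the HIF core 82 bases before its start. RefSeq promoters matched 76 of the 89 members. Of these, 12 (15.8%) held the nuclear respiratory factor 1 core, against 2.81% of all 27305 promoters. The ETS core was in 21.1% of the members and 8.82% of all promoters, the YY1 core in 6.58% and 2.83%, the E-box in 9.21% and 6.49%, and the HIF core in 22.4% and 18.7%. The nuclear respiratory factor 1 core was in 0 of 7 matched assembly factors, 4 of 31 complex I genes, 1 of 2 of complex II, 0 of 5 of complex III, 2 of 16 of complex IV and 4 of 14 of complex V. A match is a description of letters in this window and not a shown binding site.

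Transcripts of the chain showed no common shift in either direction. No member passed an adjusted p of 0.05 in limma over all genes, a threshold that 2 of 19754 genes passed (0.0101%). At an unadjusted p under 0.05 there were 4 members, all assembly factors, against 16.9% of all genes. The 2 EDHB arrays both lay above the 2 untreated arrays for 18 of the 89 members and both below for 19, against 23.3% and 22.6% of all genes, and the groups did not overlap for 45.8% of all genes. They overlapped for 52 members. The median log2 change was 0.01 over all members (-0.04 within replicate 1 and 0.05 within replicate 2), against -0.0014 over all genes. Among the 81 subunits with cytochrome c, 78 changed by less than 0.15 in size, and the range was -0.27 to 0.14. The median 95% confidence interval of these genes, not adjusted for the number of genes, reached 0.21 to each side of the estimate. The adjusted threshold is stricter with 2 arrays a group, and BNIP3, at 1.14, did not pass it. The lack of calls therefore does not exclude differences larger than 0.21.

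**Figure D1:**
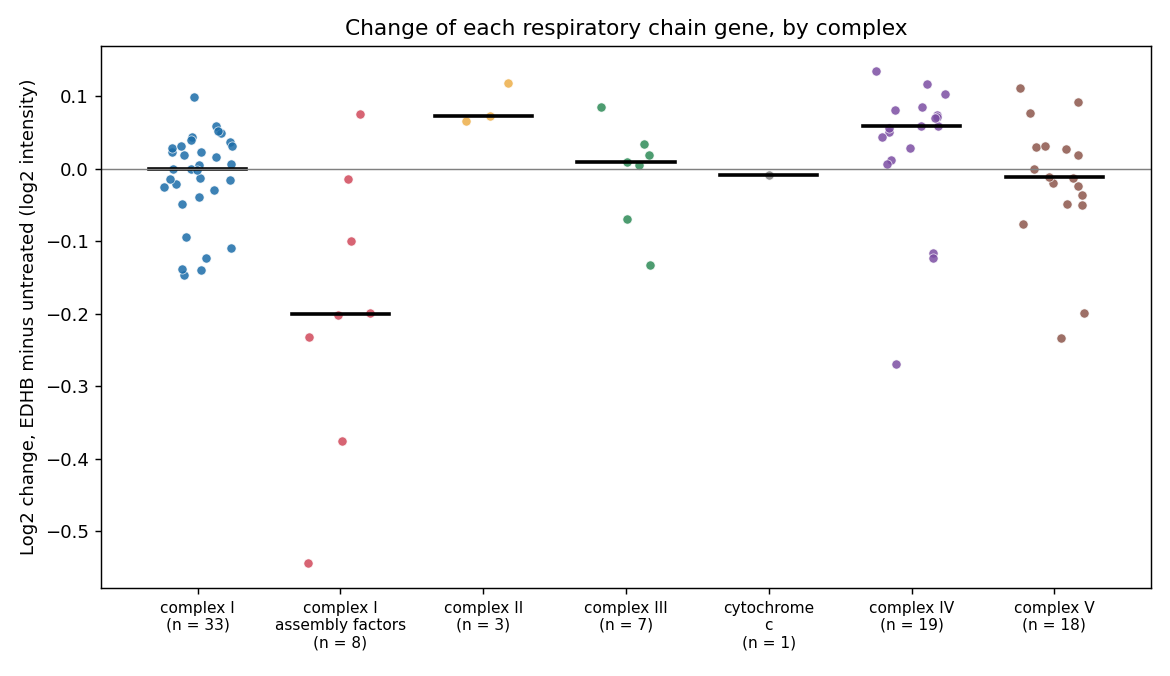
Log2 change of each of the 89 measured genes, EDHB minus untreated (y axis), by complex (x axis, with the number of genes). Points are genes, bars are medians. The subunit groups have medians between -0.01 and 0.07, and the assembly factors one of -0.20.

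Complex I takes electrons from NADH, and its 33 measured subunits had a median change of 0.00, which averages opposite shifts of -0.085 within replicate 1 and 0.04 within replicate 2. The genes lay between -0.15 for NDUFB10 and 0.10 for NDUFB11. EDHB lay above untreated for 2 of them, NDUFB5 and NDUFB11, and below for 5, NDUFB10, NDUFS3, NDUFV3, NDUFS7 and NDUFAB1, shares of the group that are no larger than those over all genes. NDUFS1, which carries iron-sulfur clusters of the electron-input arm, read 9.79 and 9.80 with EDHB, against 9.93 and 9.71 untreated. NDUFV1, which binds NADH and FMN, read 10.47 and 10.53 with EDHB, against 10.59 and 10.50 untreated. NDUFV2, its iron-sulfur partner, read 11.29 and 11.20 with EDHB, against 11.36 and 11.16 untreated. In these brightest probe sets the values of all 3 overlapped between the groups, and their changes were -0.03, -0.04 and -0.01. NDUFS1 had other probe sets at -0.08, -0.11, -0.25 and, below the median probe set, -0.20. In all of these but the one at -0.08, EDHB lay below untreated. The other NDUFV1 probe set changed by 0.06.

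NDUFAB1, the mitochondrial acyl carrier protein that also sits in complex I, read 12.15 and 12.17 with EDHB and 12.25 and 12.26 untreated, a change of -0.09 (SE 0.07, limma adjusted p = 0.59). NDUFB10, an accessory subunit of the membrane arm, read 9.92 and 9.93 with EDHB and 10.17 and 9.97 untreated (-0.15, SE 0.10, limma adjusted p = 0.516). Its gap lay mostly within replicate 1, at -0.25, and was -0.04 within replicate 2. NDUFB11, another membrane-arm subunit, read 9.91 and 9.93 with EDHB and 9.89 and 9.75 untreated (0.10, SE 0.08, limma adjusted p = 0.624). The 95% intervals of both include 0, from -0.39 to 0.10 for NDUFB10 and from -0.12 to 0.32 for NDUFB11. NDUFS3, a subunit of the arm that faces the matrix, read 9.72 and 9.61 with EDHB, against 9.86 and 9.74 untreated, with -0.14 within each replicate number (limma adjusted p = 0.506). NDUFS7, the subunit that NDUFAF5 modifies, read 9.06 on both EDHB arrays, against 9.26 and 9.08 untreated, and its change of -0.11 lay mostly in replicate 1 (-0.20, against -0.02 in replicate 2). NDUFS3 and NDUFS7 were named after their values were seen.

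Values of the NDUFAF assembly factors were mostly lower with EDHB. EDHB lay below untreated for 6 of the 8 and above for none (22.6% and 23.3% of all genes), and the median change was -0.20, with -0.20 within replicate 1 and -0.14 within replicate 2. None passed the threshold in the limma fit over all genes. NDUFAF4, which helps build the part of complex I that docks ubiquinone, read 9.38 and 9.17 with EDHB, against 9.77 and 9.87 untreated. Its change was -0.54 (SE 0.10), 0.686 times the untreated level, with a limma adjusted p of 0.135. In a limma fit whose prior variance follows intensity, a setting that called 476 genes (2.41%), 204 of them lower (1.03%), NDUFAF4 was the 1 member called, at an adjusted p of 0.0394. It was also the 1 member called when dim probe sets were left out before limma (adjusted p = 0.0446), where 4.81% of 12379 genes were called. A second NDUFAF4 probe set could not be restored in replicate 2 and was lower by 0.50 within replicate 1 (5.99 with EDHB, 6.49 untreated).

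NDUFAF5, an arginine hydroxylase that modifies the subunit NDUFS7, read 8.38 and 8.27 with EDHB, against 8.69 and 8.72 untreated (-0.38, SE 0.08, limma adjusted p = 0.147). NDUFAF7, a mitochondrial methyltransferase needed for complex I assembly, read 8.66 and 8.58 with EDHB, against 8.85 and 8.86 untreated (-0.23, SE 0.08, limma adjusted p = 0.242). NDUFAF6, which acts early in assembly, read 9.91 and 9.87 with EDHB, against 10.11 and 10.08 untreated (-0.20, SE 0.07, limma adjusted p = 0.274). In each of these genes the groups did not overlap, which by itself makes the change within each replicate number negative. The changes were -0.30, -0.19 and -0.20 within replicate 1 and -0.45, -0.27 and -0.20 within replicate 2.

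Their other probe sets also had mean changes below 0. NDUFAF5 had others at -0.24 and -0.04, NDUFAF7 at -0.41 and -0.28, and NDUFAF6 at -0.07. The NDUFAF5 probe set at -0.04, below the median probe set, differed in sign between replicate 1 (0.13) and replicate 2 (-0.20). NDUFAF3, a partner of NDUFAF4, read 7.87 and 7.90 with EDHB and 8.18 and 7.98 untreated, and most of its change of -0.20 came from replicate 1 (-0.31, against -0.09 in replicate 2). NDUFAF8, a partner of NDUFAF5, read 10.52 and 10.56 with EDHB and 10.64 untreated on both arrays (-0.10). NDUFAF2, which joins late in assembly, and NDUFAF1, an early factor for the membrane arm, had overlapping groups and changes of -0.01 and 0.08.

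**Figure D2:**
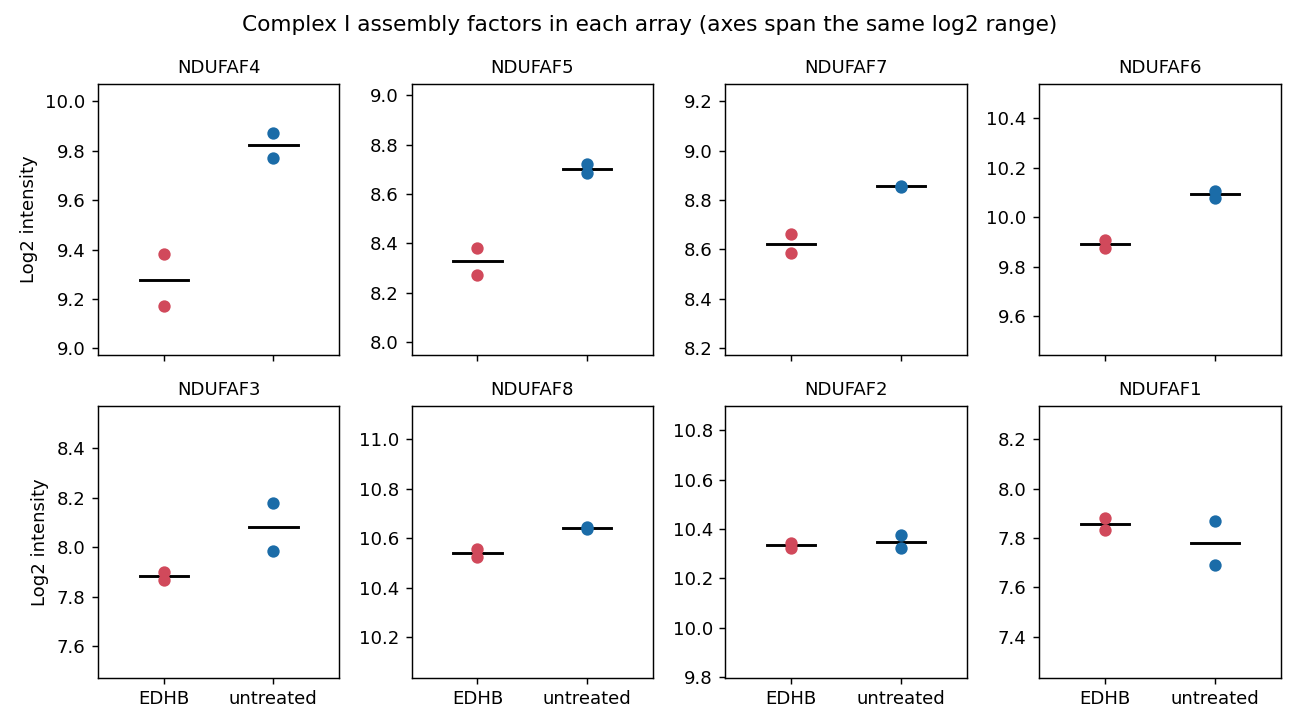
Log2 intensity (y axis) of the 8 complex I assembly factors in each array, with EDHB on the left and untreated on the right of each panel. Points are arrays and bars are means of 2 arrays. In 6 panels both EDHB arrays lie below both untreated ones, and NDUFAF2 and NDUFAF1 overlap.

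Complex II is the succinate dehydrogenase of the citric acid cycle, and all its subunits are nuclear. EDHB lay above untreated for all 3 measured members (23.3% of all genes), and their median change was 0.07 (0.04 within replicate 1, 0.13 within replicate 2). SDHA, the flavoprotein, read 9.54 and 9.53 with EDHB, against 9.50 and 9.33 untreated (0.12, SE 0.09, limma adjusted p = 0.573). The membrane anchors SDHC, at 10.04 and 10.07 with EDHB and 10.02 and 9.94 untreated, and SDHD, at 9.71 and 9.76 with EDHB and 9.64 and 9.70 untreated, each changed by 0.07. All 7 SDHC probe sets had mean changes above 0, between 0.02 and 0.15, but several, among them the one at 0.02, were below 0 within replicate 1. The intervals of all 3 genes include 0.

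Complex III had a median change of 0.01 over 7 genes (-0.03 within replicate 1, 0.04 within replicate 2). EDHB lay above for UQCRB and below for CYC1 and UQCR10 (23.3% and 22.6% of all genes). With the mean of all probe sets of a gene the median was -0.10. UQCRB, which binds near the ubiquinone site, had other probe sets at 0.04, -0.11 and, below the median probe set, -0.40. CYC1, the cytochrome c1 that hands electrons to cytochrome c, read 10.73 and 10.67 with EDHB, against 10.85 and 10.81 untreated (-0.13, SE 0.08, limma adjusted p = 0.457), with a change of -0.13 within replicate 1 and -0.14 within replicate 2. The core proteins UQCRC1, at 10.18 and 10.19 with EDHB and 10.20 and 10.00 untreated, and UQCRC2, at 11.29 and 11.23 with EDHB and 11.27 and 11.21 untreated, overlapped between the groups, with changes of 0.09 and 0.02. UQCRH, a hinge subunit, shared its probe set with its near-identical copy UQCRHL and could not be told apart from it; that probe set changed by 0.02.

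CYCS, the mobile carrier between complexes III and IV, read 12.99 and 12.96 with EDHB, against 12.91 and 13.06 untreated (-0.01, SE 0.09, limma adjusted p = 0.981). Its probe sets disagreed. A second read 7.96 and 7.54 with EDHB, against 8.14 and 7.99 untreated (-0.31), and another 6.90 and 6.63 with EDHB, against 7.14 on both untreated arrays (-0.37). For both dimmer probe sets the EDHB arrays lay below the untreated ones.

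Complex IV, cytochrome c oxidase, had changes above 0 in 16 of its 19 genes, against 9761 of the 19754 genes tested. The change was above 0 within both replicate numbers for 11 of the 19, against 6120 of all genes. The median was 0.06 (0.02 within replicate 1, 0.10 within replicate 2), and EDHB lay above for 9 and below for 1 (23.3% and 22.6% of all genes). No gene of it was called. COX4I1, the usual form of the regulatory subunit 4, read 11.99 and 12.03 with EDHB, against 11.99 and 11.93 untreated (0.05, SE 0.08). COX6A1, the usual form of subunit 6A, read 12.40 and 12.42 with EDHB, against 12.37 and 12.31 untreated (0.07, SE 0.08). COX7A2L, which links complexes III and IV into supercomplexes, read 10.83 and 10.96 with EDHB, against 10.78 on both untreated arrays (0.12, SE 0.08, limma adjusted p = 0.552). COXFA4, a small subunit at the surface of complex IV, read 12.21 and 12.26 with EDHB, against 12.14 and 12.13 untreated (0.10, SE 0.08, limma adjusted p = 0.558). The 95% intervals of all 4 include 0. COX4I1 overlapped between the groups, and for the other 3 EDHB lay above untreated. EDHB also lay above for COX5A, COX5B, COX6C and COX7A2, with changes of 0.04 to 0.08, each larger within replicate 2 than within replicate 1. The same held between groups for COX7A1 (0.14) and COX6A2 (0.07), which lay near or below the median probe set.

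The subunit forms known to replace others in hypoxia showed no difference beyond their error. COX4I2, the HIF-inducible form of subunit 4 in other cells, read 4.63 and 5.25 with EDHB, against 4.95 and 5.16 untreated (-0.12, SE 0.22), and its interval ran from -0.68 to 0.45. COXFA4L2, a HIF target that restrains complex I activity, read 4.94 and 5.13 with EDHB, against 5.14 and 4.92 untreated (0.01, SE 0.12, interval -0.30 to 0.31). Both overlapped between groups, and both lay close to the median probe set, where arrays resolve changes poorly. The tissue-restricted forms stayed low: COX6A2, the muscle form of subunit 6A, COX7B2 and COX6B2, known from testis, and COX8C were below the median probe set. COX7A1, of heart and muscle, read 4.54 and 4.60 with EDHB, against 4.37 and 4.50 untreated (0.14, SE 0.09, limma adjusted p = 0.502), at the level of the median probe set. COX7B2 had the lowest change of the complex, -0.27, at levels of 2.30 and 2.47 with EDHB and 2.53 and 2.77 untreated.

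Complex V had a median change of -0.01 over 18 genes (-0.04 within replicate 1, 0.03 within replicate 2), with EDHB above for 3 and below for 5 (23.3% and 22.6% of all genes). The catalytic subunits ATP5F1A, at 11.95 and 11.94 with EDHB and 12.00 and 11.93 untreated, and ATP5F1B, at 12.11 and 12.02 with EDHB and 12.16 and 12.07 untreated, overlapped between groups, with changes of -0.02 and -0.05. ATP5F1D, the delta subunit of the rotor stalk, read 9.25 and 9.10 with EDHB, against 9.45 and 9.37 untreated (-0.23, SE 0.09, limma adjusted p = 0.298). Its second probe set also changed by -0.23. ATP5F1E, the epsilon subunit of the same stalk, read 12.10 and 12.28 with EDHB, against 12.08 on both untreated arrays (0.11, SE 0.09, limma adjusted p = 0.616). A second, dimmer ATP5F1E probe set (under the median probe set) had a change of -0.19, and with the mean of all probe sets ATP5F1E changed by -0.04. Neither stalk subunit passed the threshold. In the peripheral stalk that holds the synthase still, EDHB lay above untreated for ATP5PD (0.09) and ATP5PO (0.03) and below for ATP5PB (-0.08), and ATP5PF overlapped (0.08). These 4 were named after their values were seen, and their limma adjusted p-values were 0.648, 0.885, 0.675 and 0.716.

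ATP5MC1, 1 of 3 genes for the same rotor ring protein, read 9.32 and 9.60 with EDHB, against 9.71 and 9.60 untreated. Its change of -0.20 (SE 0.12) rested on replicate 1 (-0.40, against -0.00 in replicate 2). The brightest probe sets of its paralogs ATP5MC2 and ATP5MC3 changed by -0.02 and -0.04. Other ATP5MC3 probe sets changed by 0.02 and -0.21, and another of ATP5MC2, below the median probe set, by -0.19. ATP5IF1, the inhibitor that keeps the synthase from running in reverse, read 9.06 on both EDHB arrays, against 9.09 and 9.12 untreated (-0.05, SE 0.07, limma adjusted p = 0.808). Its other probe sets changed by -0.13 and -0.23. ATP5MF had only a dim probe set of its own (0.03), while a probe set it shares with ARMC2-AS1 read 11.31 on both EDHB arrays and 11.40 and 11.30 untreated.

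**Figure D3:**
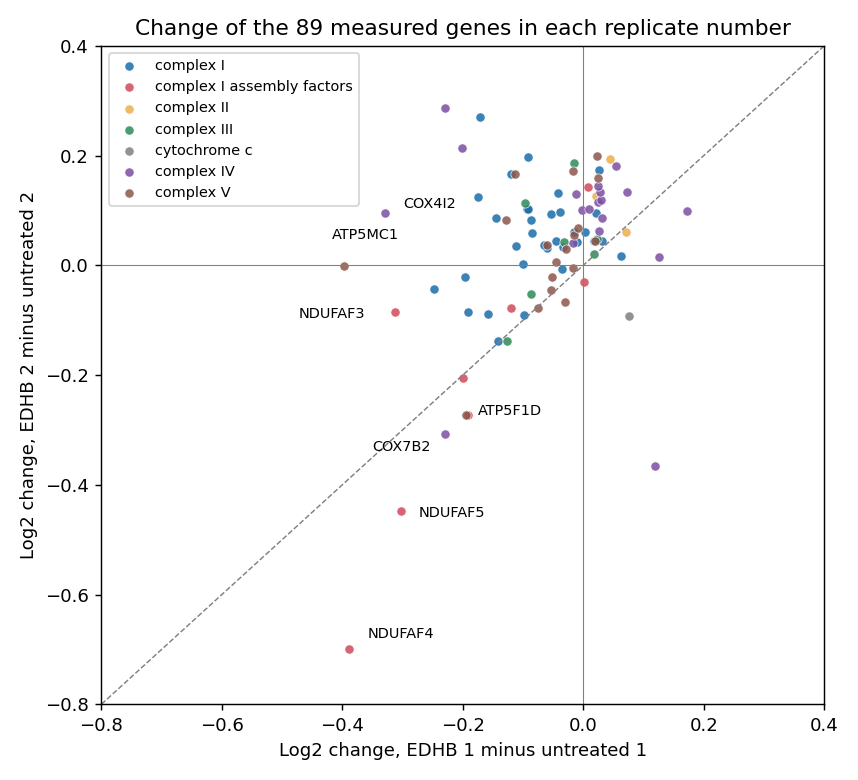
Log2 change within replicate 2 (y axis) against that within replicate 1 (x axis) for the 89 genes, coloured by complex, with the line of equality dashed. NDUFAF4 and NDUFAF5 lie lowest in replicate 2 and are low in replicate 1 too, ATP5MC1 is low in replicate 1 alone, and most subunits lie near 0.

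Genes that build the chain outside the NDUFAF symbols were also described. Of 49 further assembly genes, EDHB lay below untreated for 20 and above for 5 (22.6% and 23.3% of all genes), with a median change of -0.06, and none was called in the limma fit over all genes. COA7, a cytochrome c oxidase assembly factor, read 8.54 and 8.47 with EDHB, against 9.33 and 9.24 untreated (-0.77, SE 0.08, limma adjusted p = 0.0771, 0.0115 with an intensity trend and 0.0162 with dim probe sets left out). Its second probe set changed by -0.80. COX18, which inserts a core subunit of complex IV into the membrane, read 7.58 and 7.61 with EDHB, against 8.229 and 8.004 untreated (-0.52, SE 0.10, limma adjusted p = 0.139, and 0.0464 with dim probe sets left out). The other COX18 probe set, below the median probe set, changed by -0.02.

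The list of mitochondrial biogenesis and transcription genes had the lowest median, -0.29 (-0.22 within replicate 1, -0.31 within replicate 2), with EDHB below untreated for 13 of 16 and above for 2 (22.6% and 23.3% of all genes). With the mean of all probe sets of a gene the median was -0.15, and with every probe set on its own -0.14. NRF1, nuclear respiratory factor 1, read 5.56 and 5.52 with EDHB, against 6.21 and 6.16 untreated (-0.65, SE 0.08, limma adjusted p = 0.0829). Its 4 other probe sets changed by -0.51, -0.13, -0.21 and, below the median probe set, 0.15. Only the one at -0.51 had the same sign within both replicate numbers (-0.58 and -0.44). PPRC1, a coactivator that works with NRF1, read 7.86 and 7.65 with EDHB, against 8.41 and 8.26 untreated (-0.58, SE 0.11, limma adjusted p = 0.134). Neither was called in the limma fit over all genes. With an intensity trend, and likewise with dim probe sets left out, 3 genes of the list were called, NRF1, PPRC1 and TWNK, the mitochondrial DNA helicase (-0.54). These settings called 2.41% of 19754 genes and 4.81% of 12379 genes. TWNK was named after its value was seen. PPARGC1A, a coactivator of mitochondrial biogenesis, lay below the median probe set on all arrays.

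The list of HIF-linked genes that act on respiration had 8 members, with EDHB above for 4, BNIP3, MXI1, PDK1 and LONP1, and below for 1, ISCU (23.3% and 22.6% of all genes). BNIP3, a mitophagy receptor, read 10.58 and 10.83 with EDHB, against 9.56 and 9.58 untreated. MXI1, a MYC antagonist, read 9.401 and 9.546 with EDHB, against 8.77 and 8.72 untreated (0.73, SE 0.09, limma adjusted p = 0.0879). PDK1, the kinase that closes pyruvate entry into the cycle, changed by 0.65 (SE 0.17, limma adjusted p = 0.179), and LONP1, the matrix protease, by 0.19. The other members of the list include COX4I2 and COXFA4L2, given above.

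Enzymes that feed the chain held no gene called in the limma fit over all genes. In the citric acid cycle 11 of 13 listed genes were measured. EDHB lay below untreated for 2, OGDH (-0.11) and CS (-0.10), and above for none (22.6% and 23.3% of all genes). Among 9 genes of other electron entry, DHODH, which makes pyrimidines and passes electrons to ubiquinone, read 6.63 on both EDHB arrays, against 7.08 and 7.12 untreated (-0.47, SE 0.07, limma adjusted p = 0.11, 0.044 with an intensity trend and 0.0316 with dim probe sets left out). SQOR, the sulfide-quinone oxidoreductase, read 8.86 and 8.98 with EDHB, against 8.65 and 8.56 untreated (0.32, SE 0.09, limma adjusted p = 0.195). The remaining 7 had changes between -0.18 and 0.15.

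Among 12 inner membrane scaffold and supercomplex genes the median change was -0.08, with EDHB below for 7 and above for 2 (22.6% and 23.3% of all genes). OPA1, the fusion protein that shapes cristae, read 8.12 and 8.16 with EDHB, against 8.40 and 8.44 untreated (-0.28, SE 0.07, limma adjusted p = 0.185). Its 3 other probe sets were lower too, by 0.31 to 0.47. APOOL, a cristae junction protein, read 8.76 and 8.81 with EDHB, against 8.62 and 8.54 untreated (0.21, SE 0.08, limma adjusted p = 0.29). The other APOOL probe sets changed by 0.07, 0.05 and 0.04, and with the mean of all probe sets APOOL changed by 0.09. Of 5 measured genes of superoxide defence, SOD2, the matrix superoxide dismutase, lay above (0.14) and TXNRD2, the mitochondrial thioredoxin reductase, below (-0.09), against 23.3% and 22.6% of all genes. None of these genes was called.

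**Figure D4:**
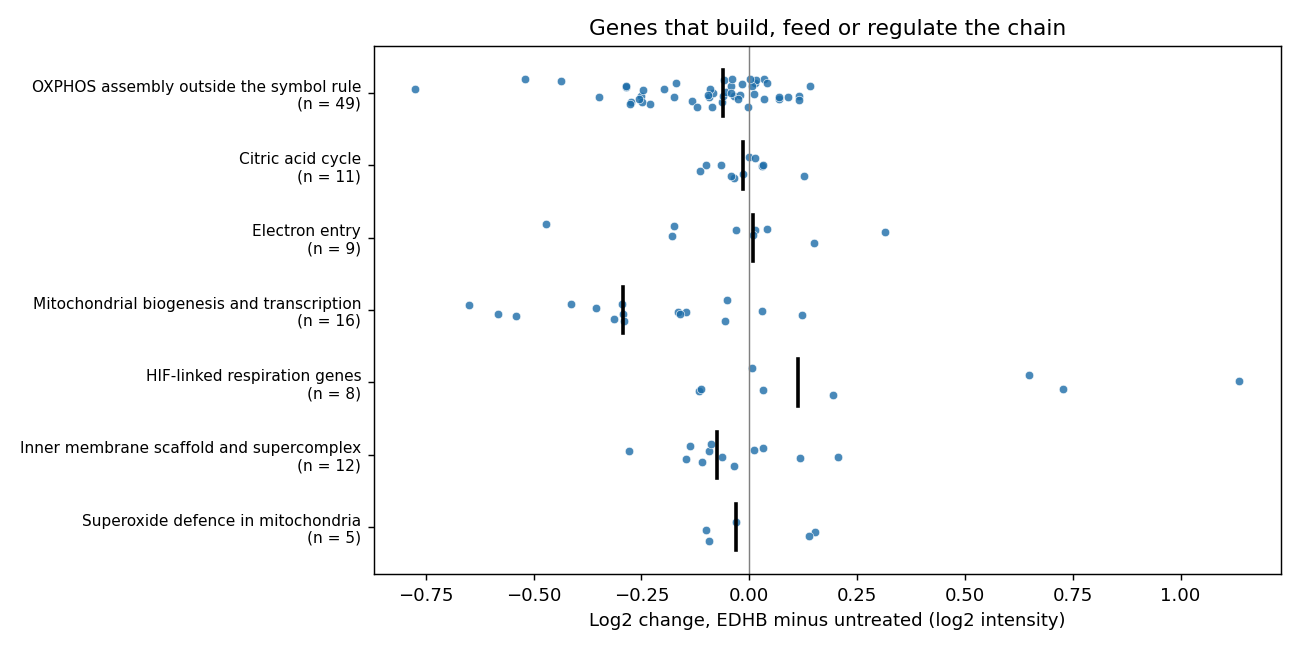
Log2 change, EDHB minus untreated (x axis), of the genes in 7 lists (rows, with the number measured). Points are genes and bars are medians. Mitochondrial biogenesis and transcription has the lowest median, -0.29, and BNIP3, MXI1 and PDK1 stand to the right among the HIF-linked genes.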

How the data were processed

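Biotin-labelled cRNA from KYSE170 cells was read on Affymetrix arrays, 2 per group. The deposited values are linear intensities from RMA as run by the authors (per the submitters' processing notes); its version is not given in the sources used here. This method equalises the arrays' distributions, which hides any global shift. The log2 of the deposited values was taken as it stood.

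Values were first split at a 2-fold EDHB minus untreated change within each replicate into a higher list, a lower list and the rest. The row order of replicate 2 was then restored by a forward-backward alignment on untreated levels (Student's t, scale 0.15, 3 degrees of freedom). Rows with a posterior of at least 0.95 were kept. The correlation between the EDHB arrays over probe sets was 0.997 once restored and 0.418 as deposited. Rows were matched on levels, so this value says little about the treatment change. The change within replicate 1 correlated with that within replicate 2 at 0.38 once restored and 0.04 as deposited. Of 54613 probe sets, 41091 had 1 gene in the platform annotation, and 41037 of these matched RefSeq identifiers. The brightest restored probe set stood for its gene. Of the members, 40 had 1 restored probe set and 49 several.

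EDHB was compared with untreated by limma 3.58.1 in R 4.3.3 (lmFit, eBayes, 2 residual degrees of freedom), with Benjamini-Hochberg adjustment over 19754 genes. Exact permutation of 2 arrays against 2 cannot give a two-sided p under 0.333. The restoring and the fit were also run on simulated data. The simulated replicate 2 took over the inferred layout and the differences between restored untreated arrays, so it cannot test that layout. Members and lists were chosen with earlier results of these data known. Named were fixed core genes, the 6 highest and 6 lowest members with non-overlapping groups above background, the extremes of each complex and 2 genes per list. Alternatives are in the closing section. Python 3.11.15 with pandas 2.3.3 was used.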

Additional observations from a re-analysis of the deposited data

How the results depend on the processing

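With an intensity trend and with dim probe sets left out, 1 member was called in each case, NDUFAF4, against 0 in the fit reported; no other setting with a test called one. Over all genes the calls were 476 with the trend, 595 without dim probe sets, 44 with arrays centred, 40 with cyclic loess, 51 with the mean of all probe sets, 2 with a posterior minimum of 0.99, and 0 with a minimum of 0.5, with the replicate block, with every probe set on its own and without any 1 array. In the lists, the trend called 1 gene of electron entry, 2 HIF-linked, 3 of biogenesis and 1 of assembly; leaving out dim probe sets called 1, 2, 3 and 3. Centring and cyclic loess each called 1 HIF-linked gene, and the mean of all probe sets called 1 HIF-linked and 1 assembly gene. Leaving out 1 array called 0 in every list and 0 members.

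The choice of probe set moved several values. With the mean of all probe sets of a gene, EDHB lay below for 31 members, against 19, and with every probe set on its own for 48 of 172, with 29 above. The shares over all genes were not counted in these settings, so the count of 31 has nothing to be set against. For the probe sets other than the brightest, shares over all genes are given under the other observations. The mean of all probe sets turned the complex III median to -0.10, and moved the medians of the citric acid cycle to -0.07, electron entry to -0.01, biogenesis to -0.15 and assembly to -0.10. With every probe set on its own these medians were -0.06 for electron entry, -0.14 for biogenesis and -0.09 for assembly. Within the replicate 1 pair alone they were -0.22 for biogenesis, -0.09 for assembly and -0.11 for the inner membrane list.

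Without 1 array in turn, EDHB lay above for 22 to 47 members and below for 23 to 41, since a lone array overlaps less. The shares over all genes were not counted here either. The medians ran from -0.04 to 0.04 for complex I, -0.22 to -0.14 for the assembly factors, 0.04 to 0.11 for complex II, -0.02 to 0.04 for complex III, 0.02 to 0.10 for complex IV, -0.03 to 0.01 for complex V and -0.02 to 0.04 for all members. For the lists they ran from -0.04 to 0.02 for the citric acid cycle, -0.04 to 0.06 for electron entry, 0.10 to 0.19 for HIF-linked genes, -0.10 to -0.04 for the inner membrane, -0.32 to -0.24 for biogenesis, -0.09 to -0.05 for assembly and -0.06 to 0.01 for superoxide defence. In these fits the lone array is assumed to vary like the other group.

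The replicate numbers are shared by both groups but were not shown to pair the samples (correlation of deviations 0.09 over all genes and 0.10 over members, 2 pairs). The replicate block called 0 members and 0 genes and changed no member's call. Signal over background limits COX4I2, COXFA4L2, COX7A1 and ATP5MF, and the 4 tissue-restricted subunits below the median probe set.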

Other observations

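Beside the brightest probe set used for each gene, 83 other restored probe sets belonged to members. Both EDHB arrays lay below both untreated arrays in 29 of them (34.9%) and above in 11 (13.3%), against 22.6% and 19.3% of 21218 such probe sets over all genes. Their median log2 change was -0.03, against -0.01 over all genes. The share below was 32.3% for the 62 above the median probe set, against 28.1% of such probe sets over all genes, and 42.9% for the 21 below it, against 17.3%. Of the 49 members with several restored probe sets, 15 had all of them lower, 12 all higher and 22 of both signs. Genes whose brightest probe set did not differ, with a dimmer one lower, included CYCS, UQCR11 (0.01 and -0.26) and ATP5MJ (0.00 and -0.25), named after their values were seen. Which transcripts these probe sets read was not tested.

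The 2 probe sets that the read-through gene ATP5MF-PTCD1 shares with PTCD1, a mitochondrial RNA-binding protein, changed by -0.28 (7.70 and 7.68 with EDHB, 8.02 and 7.92 untreated) and -0.39 (4.22 and 4.11 with EDHB, 4.59 and 4.51 untreated). The probe set of NDUFS5, shared with RPL10, changed by -0.03, and those of NDUFS8, shared with microRNA genes, by -0.06, 0.00 and -0.01.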
